A study of Homo sapiens with 9 samples.

Results

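The glycolysis and hypoxia response genes described here are 36 genes chosen by name, of the 58174 genes in the deposited tables (19799 of them protein-coding). They comprise 17 glycolytic enzymes from hexokinase to lactate dehydrogenase, 4 kinases that regulate glycolysis and pyruvate use, 12 target genes of the hypoxia-inducible factors (HIF) and 3 HIF subunits. The names were matched to the gene symbols of both tables, and the rule itself uses no measured value. All 36 were found, each under a single gene identifier.

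The series measured RNA of ES-2 cells, an established line derived from an ovarian carcinoma, grown in DMEM with fetal bovine serum. Cells were transfected with a control siRNA (siC), a pool of siRNAs against IGF2BP1 (siIGF2BP1) or a pool against SRF (siSRF) and were harvested after 72 h. TRIZOL-extracted total RNA was depleted of ribosomal RNA and made into directional libraries, 3 for each of the 3 groups. Each gene was targeted with a single pool, and the knockdown comparisons share the siC libraries. No oxygen or glucose treatment is named in the labels, so the genes were followed under the ordinary culture conditions only. The labels do not say that the libraries of a group came from separate cultures, and the p-values therefore measure the spread between these libraries, which may be technical. Gene by gene, an exact permutation test of 3 libraries against 3 cannot go below p = 0.1, so calls rest on limma over all genes tested.

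Glycolysis turns glucose into pyruvate in the cytosol, with phosphorylation by hexokinase and by phosphofructokinase as its main control points, and lactate dehydrogenase turns pyruvate into lactate. HIF is a dimer of an oxygen-labile alpha subunit and the stable subunit ARNT. With oxygen at hand, prolyl hydroxylases mark the alpha subunit for destruction through the VHL protein, and when oxygen is short the dimer binds DNA at short motifs and raises transcription of glycolytic enzymes, glucose transporters and genes of mitophagy and collagen modification. Many carcinoma cells run glycolysis at a high rate with oxygen present.

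Values are FPKM, reads scaled by gene length and by library size, as deposited. The reads on genes, recovered from the FPKM, were 6421764, 6739061 and 7253729 in the siC libraries, 7567730, 7033869 and 8419467 in siIGF2BP1, and 7377934, 9416175 and 7542197 in siSRF. Fold changes are on the scale of log2(FPKM + 0.1), which understates the change of low genes, and a gene was called lower or higher at a limma adjusted p of at most 0.01. RNA was measured in bulk, so a change in the RNA of every cell and a change in the share of cells that express a gene cannot be told apart.

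The targeted mRNAs followed the labels in all 9 libraries. IGF2BP1 was at 12.8, 13.5 and 12.1 FPKM in siC, 4.18, 4.14 and 4.02 in siIGF2BP1, and 13.7, 14.6 and 14.4 in siSRF. All siIGF2BP1 libraries lay below the others, and the log2 fold change to siC was -1.61 (standard error 0.0670, limma adjusted p = 1.4e-04). SRF was at 13.6, 14.1 and 16.0 FPKM in siC, 1.63, 1.36 and 1.42 in siSRF, and 5.80, 5.42 and 6.80 in siIGF2BP1. The 3 groups did not overlap, so the siIGF2BP1 libraries also hold less SRF mRNA than siC. The log2 fold change of SRF was -3.22 in siSRF (limma adjusted p = 6.1e-05) and -1.26 in siIGF2BP1 (limma adjusted p = 0.00111).

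Markers of cell type were checked in the same libraries. The mesenchymal markers were led by VIM, at 1055 FPKM on average in siC, 883 in siIGF2BP1 and 853 in siSRF, and FN1 fell from 8.25 FPKM in siC to 4.70 and 3.15. Of the epithelial markers KRT18 was at 43.4 FPKM in siC, 41.8 in siIGF2BP1 and 81.7 in siSRF, and KRT8 at 8.81, 12.9 and 10.1. EPCAM had no read in siC and was at 0.259, 0.218 and 0.0469 FPKM in siIGF2BP1, and CDH1 had no read in siC and at most 0.0355 FPKM in the other libraries. The ovarian carcinoma markers PAX8 and WT1 were near 0 (0.155 and 0.118 FPKM in siC), so they do not identify the tissue of origin. PTPRC, the marker of blood cells, had no read in any library. The endothelial pair PECAM1 and CDH5 summed to 8.38, 11 and 9.76 FPKM in siC and 14.5, 15.7 and 16.4 in siIGF2BP1, nearly all of it CDH5, with PECAM1 at 0.313 FPKM in siC. The fibroblast pair DCN and COL1A1 summed to 3.55, 4.2 and 2.76 FPKM in siC and 25.6, 17.1 and 20 in siIGF2BP1, all but a single read of it COL1A1. In siSRF these sums were 7.70, 8.49 and 7.90 for endothelium and 4.18, 4.28 and 5.29 for fibroblasts. The part of these changes in the values of the glycolysis and hypoxia genes was not tested.

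In siC, 10 members were at 100 FPKM or above and 20 at 10 or above, and 6 were below 1. GAPDH, glyceraldehyde-3-phosphate dehydrogenase, was the most abundant at 1399 FPKM on average in siC, followed by ENO1 (754), TPI1 (406), LDHB (384) and PKM (302). At the other end CA9, which encodes a cell surface carbonic anhydrase, was covered by 3 reads in all 9 libraries together, ADM (adrenomedullin) by 7 and EGLN3, a HIF prolyl hydroxylase, by 3. These 3 classical HIF targets did not reach the minimum mean of 0.1 FPKM and were not tested, and a change in them was not detectable at this depth. The other 33 members were tested in every comparison. Positions of the members described most closely are from GENCODE on GRCh38. HK2 is ENSG00000159399, at chr2:74834127-74893359 on the plus strand. PFKL is ENSG00000141959, at chr21:44300051-44327376 on the plus strand. PGAM1 is ENSG00000171314, at chr10:97426191-97433444 on the plus strand. P4HA1 is ENSG00000122884, at chr10:73007217-73096974 on the minus strand. BNIP3 is ENSG00000176171, at chr10:131967684-131981967 on the minus strand. BNIP3L is ENSG00000104765, at chr8:26383054-26505636 on the plus strand. HIF1A is ENSG00000100644, at chr14:61695513-61748259 on the plus strand.

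**Figure D1:**
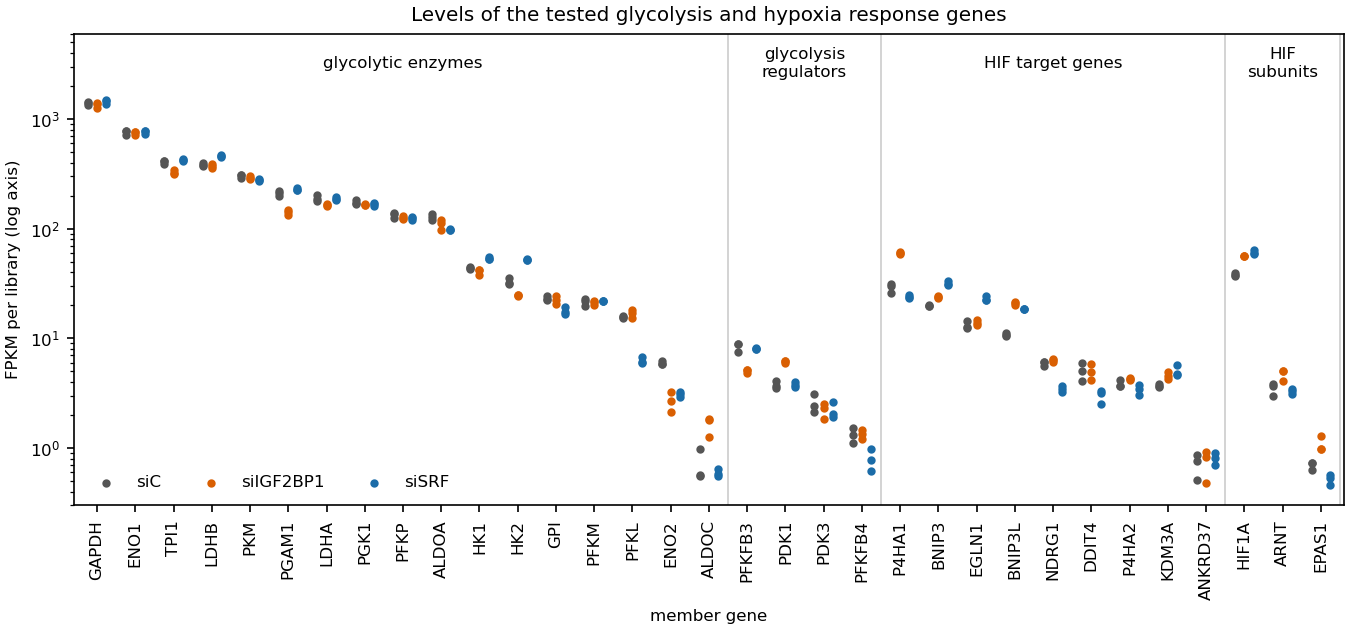
FPKM of the 33 tested members in each of the 9 libraries, on a log axis, with the genes in order of their role and the groups siC, siIGF2BP1 and siSRF in separate colours. GAPDH lies highest, at 1399 FPKM on average in siC, and the glycolytic enzymes fill most of the range above 100 FPKM.

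As a sum, the 17 glycolytic enzymes were at 4076, 4256 and 4339 FPKM in siC, 3979, 3723 and 4037 in siIGF2BP1, and 4376, 4385 and 4237 in siSRF. All siIGF2BP1 libraries lay below all others, and siC and siSRF overlapped. As a share, the enzymes made up 1.90% of the FPKM of protein-coding genes in siC (SD 0.0294, n = 3), 1.92% in siIGF2BP1 (SD 0.0336, n = 3) and 1.94% in siSRF (SD 0.0206, n = 3). The sum is dominated by GAPDH and ENO1, and the shares of siC and siIGF2BP1 overlapped. The HIF target genes together were at 93.2, 88.7 and 95.1 FPKM in siC, 137, 140 and 142 in siIGF2BP1, and 117, 111 and 111 in siSRF. These groups did not overlap. P4HA1 was the largest part of this sum in siIGF2BP1, at 60.2 FPKM on average. It was at 29.3 in siC and 24.1 in siSRF. Of the 9 targets tested, 8 log2 fold changes were positive and 1 negative in siIGF2BP1, and 5 and 4 in siSRF. The HIF subunits summed to 44.2, 40.9 and 42.2 FPKM in siC, 62.1, 62.1 and 62.4 in siIGF2BP1, and 67.7, 64.4 and 62.6 in siSRF, nearly all of it HIF1A. The regulators summed to 16.1 FPKM on average in siC, 14.7 in siIGF2BP1 and 14.8 in siSRF.

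The first comparison asks what the IGF2BP1 knockdown did to these mRNAs. In siIGF2BP1 against siC, 4 of the 33 tested members were called lower (HK2, PGAM1, ENO2 and PFKFB3) and 5 higher (PDK1, BNIP3, BNIP3L, P4HA1 and HIF1A). Over all 22292 genes tested, 3.57% were called lower and 3.55% higher, and over the tested genes of at least 1 FPKM, where most members lie, 5.5% and 5.21%. The median log2 fold change was -0.02 over the members and 0.02 over all genes tested. By limma-voom on the recovered reads, 7 members were lower and 7 higher, with 8.48% and 8.59% of all genes. Without siIGF2BP1 1, siC 1 or siC 3 the count lower was 1, and without siIGF2BP1 2, siIGF2BP1 3 or siC 2 it was 0. The count higher was 4 without siC 3 and 3 without any other library. Over all genes, the fits that left out a library called 224 to 329 lower and 212 to 420 higher, where the full fit called 796 and 792.

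The second comparison asks the same of the SRF knockdown. In siSRF against siC, 4 members were called lower (PFKL, ALDOA, ENO2 and NDRG1) and 7 higher (HK1, HK2, LDHB, BNIP3, BNIP3L, EGLN1 and HIF1A). Of the 21857 genes tested, 5.34% were called lower and 6.85% higher, and of those of at least 1 FPKM, 7.98% and 10.5%. The medians were -0.06 over the members and 0.01 over all genes tested. Limma-voom called 9 members lower and 8 higher, beside 10.7% and 12.7% of all genes. Without siSRF 1 the count lower was 2, and that fit called 494 of all genes lower, where the full fit called 1167.

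The knockdowns were also set against each other, which uses no siC library and tests their difference directly. In siIGF2BP1 against siSRF, 8 members were lower (HK1, HK2, TPI1, PGAM1, LDHB, PFKFB3, BNIP3 and EGLN1) and 5 higher (PFKL, ALDOC, PDK1, NDRG1 and P4HA1). Of the 22311 genes tested, 11.2% were lower and 8.82% higher, and of those of at least 1 FPKM, 17.2% and 12.6%. By limma-voom 10 members were lower and 11 higher, beside 16.3% and 14.7% of all genes. The median was -0.01 over the members and 0.02 over all genes. Of the members, 16 of the 33 tested were called in none of the 3 comparisons, a count that was not made over all genes.

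**Figure D2:**
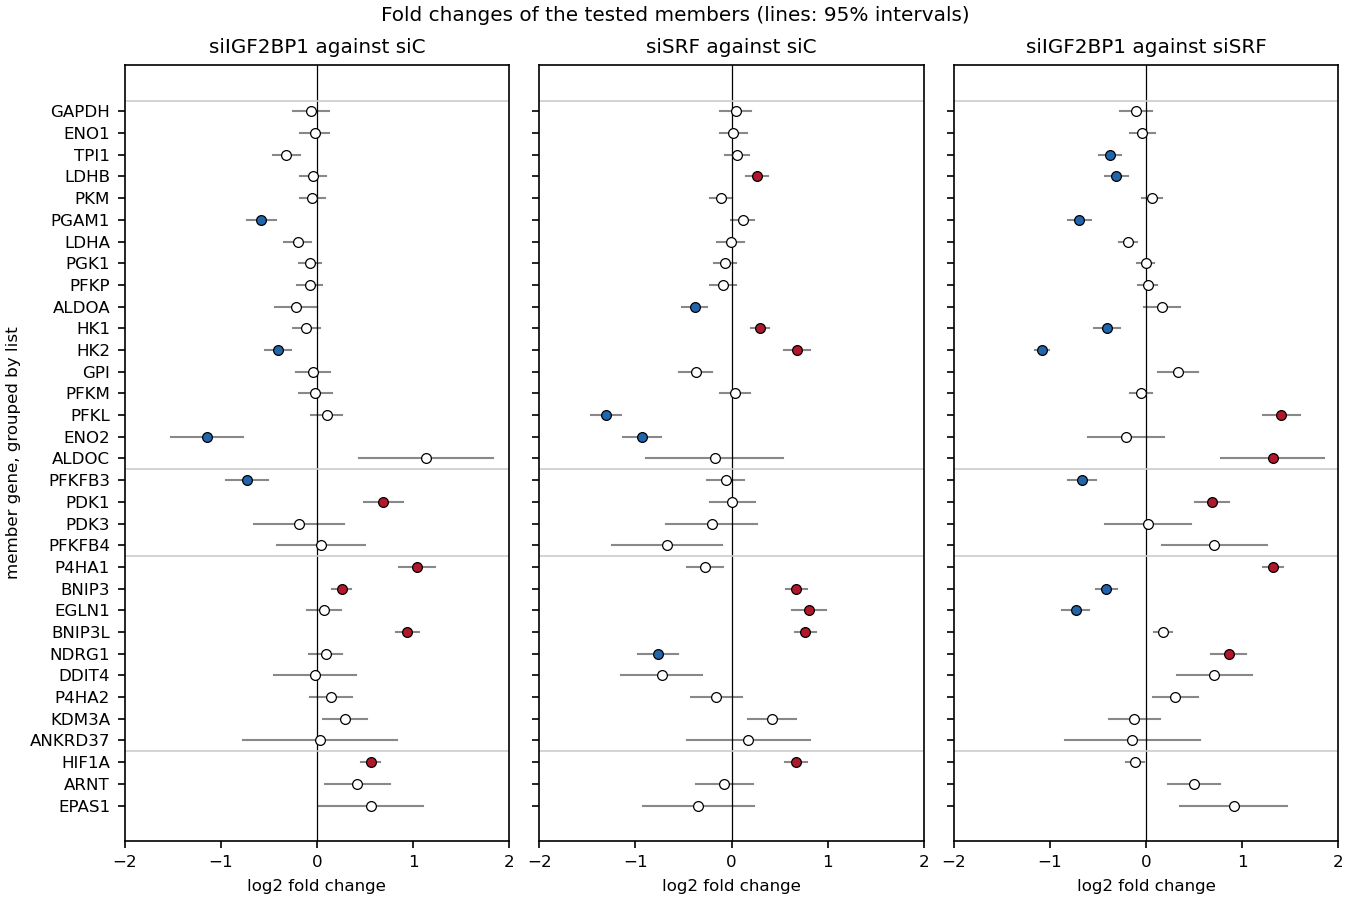
Log2 fold change of each tested member with its 95% interval from limma, for siIGF2BP1 against siC, siSRF against siC and siIGF2BP1 against siSRF. Filled points mark called genes (red higher, blue lower) and open points genes that were not called; P4HA1 (1.04) and ENO2 (-1.142) mark the ends of the called genes in siIGF2BP1, and EGLN1 (0.81) and PFKL (-1.31) those in siSRF.

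Among the glycolytic enzymes, 3 of 17 fell and 0 rose in siIGF2BP1, 3 fell and 3 rose in siSRF, and in the direct comparison 5 were lower and 2 higher in siIGF2BP1. Of the tested genes of at least 1 FPKM, 5.5% were lower and 5.21% higher in siIGF2BP1, 7.98% and 10.5% in siSRF, and 17.2% and 12.6% in the direct comparison. At an unadjusted limma p below 0.05, 6 were lower and 1 higher in siIGF2BP1, and limma-voom also called 6 lower and 1 higher. Over all 22292 genes tested, 3224 were lower and 3287 higher at that unadjusted p, and limma-voom called 8.48% and 8.59%. Limma-voom called 5 enzymes lower and 3 higher in siSRF, beside 10.7% and 12.7% of all genes. In the direct comparison it called 7 and 4, beside 16.3% and 14.7%. The count lower in siIGF2BP1 was 1 without siIGF2BP1 1 or siC 1 and 0 without any other library. The count higher in siSRF was 1 without any library but siC 2. In the direct comparison the count lower was 3 without siSRF 2, and the count higher was 1 without any library but siIGF2BP1 2. The median log2 fold change of the enzymes was -0.07 in siIGF2BP1 and -0.01 in siSRF. In siSRF the median of the glycolytic enzymes was 0.09 after removal of the trends with GC content and gene length. The enzymes are described in the order of the pathway.

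Hexokinase traps glucose in the cell as glucose-6-phosphate. HK2, the isozyme that is inducible in many tumours, was at 31.0, 31.9 and 35.3 FPKM in siC, 24.7, 24.8 and 24.5 in siIGF2BP1, and 53.3, 52.0 and 51.7 in siSRF. The siC libraries lay between the knockdowns, and none of the groups overlapped. HK2 fell by 0.40 on the log2 scale in siIGF2BP1 (standard error 0.0573, limma adjusted p = 0.00628) and rose by 0.68 in siSRF (standard error 0.0559, limma adjusted p = 7.5e-04). It is the single member called in opposite directions, and the direct difference was -1.08 (standard error 0.0314, limma adjusted p = 1.3e-05). The call in siIGF2BP1 was lost in each of the 6 fits that left out a library, whichever it was (log2 fold change -0.44 to -0.35, limma adjusted p 0.0109 to 0.0325), while the other HK2 calls held in all 6. HK1, the ubiquitous hexokinase, was at 42.9, 44.6 and 43.9 FPKM in siC, 42.2, 37.6 and 42.0 in siIGF2BP1, and 52.8, 55.7 and 53.0 in siSRF. The siSRF libraries lay above all others, and the siIGF2BP1 libraries lay just below siC. HK1 rose by 0.30 in siSRF (limma adjusted p = 0.00346), a call kept only without siC 2 among the fits that left out a library (limma adjusted p 0.00995 to 0.0182). In siIGF2BP1 its log2 fold change was -0.11 (limma adjusted p = 0.259).

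The promoter of HK2 is shown because HK2 differed between all 3 groups and is a known HIF target. Promoter sequences are from RefSeq (GRCh38.p14), from 250 bases before to 50 bases after the RefSeq start of the gene, which can differ from the GENCODE position, printed 5′ to 3′ on the strand of the gene. Capitals mark each match of ACGTG or GCGTG, the core letters of the HIF motif, on either strand, so the reverse complements CACGT and CACGC appear as well. A match is a description of the letters in this window. The HK2 window lies at chr2:74833877-74834176 on the plus strand.
HK2: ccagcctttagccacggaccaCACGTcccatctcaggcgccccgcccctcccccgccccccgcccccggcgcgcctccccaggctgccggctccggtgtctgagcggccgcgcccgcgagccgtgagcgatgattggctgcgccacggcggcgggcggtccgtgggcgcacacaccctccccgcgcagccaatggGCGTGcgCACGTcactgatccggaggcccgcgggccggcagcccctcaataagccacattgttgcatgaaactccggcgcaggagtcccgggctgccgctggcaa

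Within the hexokinase pair the balance moved with these changes. HK2 made up 42.7% of the summed FPKM of HK1 and HK2 in siC (SD 1.59, n = 3), 37.8% in siIGF2BP1 (SD 1.62, n = 3) and 49.3% in siSRF (SD 0.983, n = 3). The lowest siC library was at 41.7% and the highest siIGF2BP1 library at 39.7%, so the shares did not overlap. The level of the share depends on the length assigned to each gene, and it was 32.3%, 28.0% and 38.3% in the same order with the length of the canonical transcript, with the order of the groups kept.

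GPI, which interconverts glucose-6-phosphate and fructose-6-phosphate, was at 23.1 FPKM on average in siC, 22.5 in siIGF2BP1 and 17.8 in siSRF. Its log2 fold change in siSRF was -0.37 with a limma adjusted p of 0.0121, short of the threshold, and limma-voom called it lower (adjusted p = 2.2e-05). Phosphofructokinase commits the sugar to glycolysis. PFKL, its liver-type isozyme, was at 15.5, 16.0 and 15.3 FPKM in siC, 18, 15.4 and 17.0 in siIGF2BP1, and 6.01, 6.06 and 6.73 in siSRF. The siSRF libraries lay far below the others, and the siC and siIGF2BP1 libraries overlapped. PFKL fell by 1.31 in siSRF (standard error 0.0641, limma adjusted p = 2.1e-04) and differed by 1.41 between the knockdowns (limma adjusted p = 7.8e-05). Its sister isozymes were not called in any comparison. PFKP, the platelet type and the most abundant, was at 133 FPKM on average in siC, 126 in siIGF2BP1 and 125 in siSRF, and PFKM, the muscle type, at 21.5, 21.2 and 22. The exons of PFKM overlap those of SENP1 on the opposite strand over 516 bases, and SENP1 had 28.5% as many reads as PFKM, so reads from the shared bases cannot be told apart where counting ignored the strand, a setting not given in the sources used here. PFKL made up 9.22% of the phosphofructokinase FPKM in siC (SD 0.514, n = 3), 10.2% in siIGF2BP1 (SD 0.559, n = 3) and 4.10% in siSRF (SD 0.367, n = 3), with PFKP at 78.2%, 76.8% and 81.5%. With the length of the canonical transcript the PFKL share was 14.0%, 15.4% and 6.41% in the same order.

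**Figure D3:**
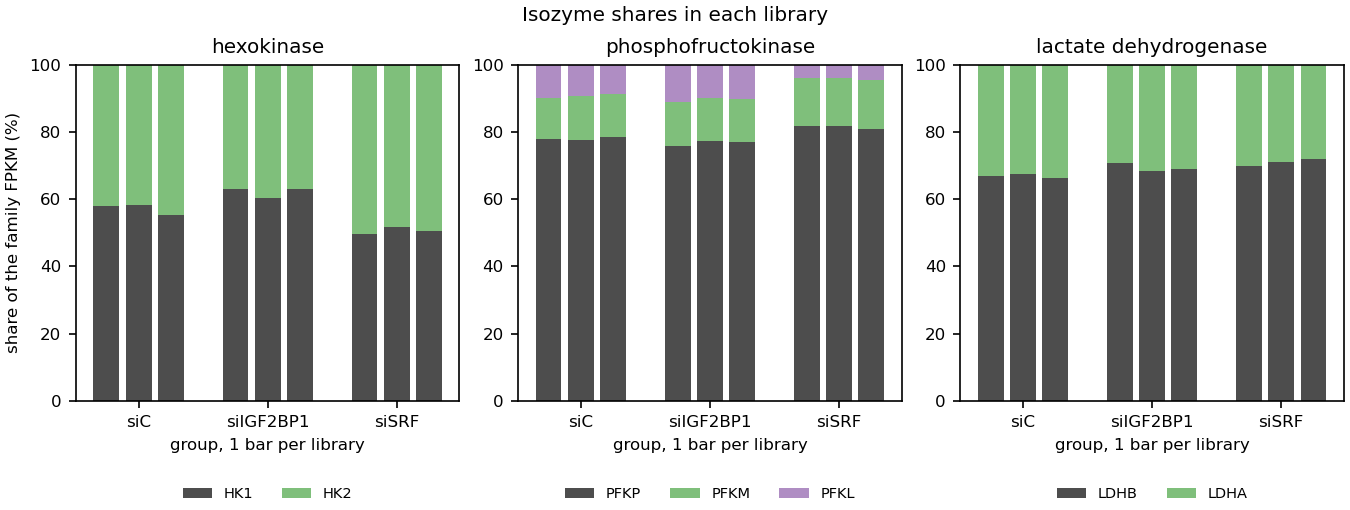
Share of each isozyme in the summed FPKM of its family in each library, for hexokinase, phosphofructokinase and lactate dehydrogenase. The HK2 share averaged 42.7% in siC, 37.8% in siIGF2BP1 and 49.3% in siSRF, the PFKL share 9.22%, 10.2% and 4.10%, and the LDHA share 33.0%, 30.6% and 29.0%.

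Aldolase splits fructose-1,6-bisphosphate. ALDOA, the main isozyme, was at 135, 129 and 119 FPKM in siC, 120, 97.3 and 113 in siIGF2BP1, and 96.6, 98.4 and 97.9 in siSRF. The siSRF libraries lay below siC, and the siIGF2BP1 libraries overlapped both. ALDOA fell by 0.38 in siSRF (limma adjusted p = 0.00363), but with trends along GC content and gene length removed the log2 fold change was -0.15 and no longer called (limma adjusted p = 0.137). Without siC 3 it stayed called, and without any other library it did not (limma adjusted p 0.00389 to 0.0205). ALDOC, the isozyme of brain, was low at 0.983, 0.553 and 0.567 FPKM in siC, 1.78, 1.26 and 1.85 in siIGF2BP1, and 0.574, 0.637 and 0.556 in siSRF. All siIGF2BP1 libraries were the highest, and siC and siSRF overlapped. ALDOC was called in the direct comparison (log2 difference 1.31, limma adjusted p = 0.0052) and not against siC (1.137, limma adjusted p = 0.045), at 11 to 46 reads per library. Its direct call held only without siIGF2BP1 2 among the fits that left out a library, with limma adjusted p between 0.00657 and 0.0255.

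Triose phosphate isomerase, glyceraldehyde-3-phosphate dehydrogenase and phosphoglycerate kinase follow. TPI1 was at 386, 417 and 416 FPKM in siC, 320, 314 and 344 in siIGF2BP1, and 423, 413 and 432 in siSRF. The siIGF2BP1 libraries were the lowest, and those of siC and siSRF overlapped. The log2 fold change in siIGF2BP1 was -0.32 (limma adjusted p = 0.0159), which misses the threshold, while limma-voom called it (adjusted p = 1.3e-06). The direct difference of -0.38 was called (limma adjusted p = 0.00173). Entries named as TPI1 pseudogenes held 5.37% as many reads as TPI1. GAPDH (1341 FPKM on average in siIGF2BP1 and 1442 in siSRF) and PGK1 (175 in siC, 166 and 167 in the knockdowns) were not called in any comparison, with log2 fold changes to siC between -0.08 and 0.04. TPI1, GAPDH and ENO2 are near neighbours on chromosome 12, with 328744 bases between GAPDH and TPI1 and 42796 between TPI1 and ENO2, all on the plus strand.

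PGAM1, phosphoglycerate mutase, was at 198, 212 and 221 FPKM in siC, 143, 133 and 147 in siIGF2BP1, and 226, 224 and 233 in siSRF. All siIGF2BP1 libraries lay below all others. PGAM1 fell by 0.58 in siIGF2BP1 (standard error 0.0614, limma adjusted p = 0.00231) and the direct difference was -0.69 (limma adjusted p = 1.5e-04). The call against siC was kept only without siC 1 (limma adjusted p 0.00702, and up to 0.0124 without another library), and the direct call in all 6 such fits. In siSRF the log2 fold change was 0.11 (limma adjusted p = 0.17). Enolase makes phosphoenolpyruvate. ENO2, the neuronal isozyme, was at 6.23, 5.84 and 5.88 FPKM in siC, 3.26, 2.15 and 2.67 in siIGF2BP1, and 3.24, 3.13 and 2.91 in siSRF. The libraries of both knockdowns lay below siC and overlapped each other. ENO2 fell by 1.142 in siIGF2BP1 (standard error 0.155, limma adjusted p = 0.00535) and by 0.93 in siSRF (standard error 0.0814, limma adjusted p = 9.2e-04), at 67 to 182 reads per library. The siSRF call held in all 6 fits that left out a library, and the siIGF2BP1 call only in that without siIGF2BP1 1 (limma adjusted p 0.00701 to 0.0275). ENO1, the main isozyme, was at 754, 743 and 765 FPKM on average in siC, siIGF2BP1 and siSRF, and was not called, so that ENO2 made up 0.789%, 0.360% and 0.403% of the enolase FPKM.

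PKM, pyruvate kinase, was at 302 FPKM on average in siC, 292 in siIGF2BP1 and 281 in siSRF and was not called, though limma-voom called it lower in siSRF (adjusted p = 0.00893). The values are per gene, so its splice forms were not analysed here. Lactate dehydrogenase is a tetramer of A and B chains, of which the A chain is a HIF target. LDHA was at 187, 179 and 202 FPKM in siC, 161, 164 and 168 in siIGF2BP1, and 195, 187 and 182 in siSRF. The siIGF2BP1 libraries lay below the others, by a log2 fold change of -0.20 to siC that was not called (limma adjusted p = 0.0606, limma-voom adjusted p = 7.3e-04). LDHB was at 379, 372 and 400 FPKM in siC, 390, 354 and 374 in siIGF2BP1, and 454, 459 and 472 in siSRF, and the siSRF libraries lay above the rest. It rose by 0.27 in siSRF (limma adjusted p = 0.00933), with a direct difference of -0.31 (limma adjusted p = 0.00402). The siSRF call was lost without any of the 6 libraries (limma adjusted p 0.0115 to 0.0407), and after removal of the trends with GC content and gene length both calls were lost (0.13, limma adjusted p = 0.115 in siSRF, and -0.19, limma adjusted p = 0.0449 for the direct difference). The direct call held without siIGF2BP1 1 or 2 and was lost without siIGF2BP1 3 or any siSRF library (limma adjusted p 0.00659 to 0.0196). LDHA made up 33.0% of the pair in siC (SD 0.602, n = 3), 30.6% in siIGF2BP1 (SD 1.26, n = 3) and 29.0% in siSRF (SD 1.07, n = 3), by FPKM. By reads, which are not per length, the LDHA share was 50.7%, 47.9% and 45.9%.

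The LDHA window, at chr11:18394313-18394612 on the plus strand, is shown because it holds 5 matches of ACGTG when both strands are counted. A run of CACGTG reads the same on both strands and counts as a pair of matches.
LDHA: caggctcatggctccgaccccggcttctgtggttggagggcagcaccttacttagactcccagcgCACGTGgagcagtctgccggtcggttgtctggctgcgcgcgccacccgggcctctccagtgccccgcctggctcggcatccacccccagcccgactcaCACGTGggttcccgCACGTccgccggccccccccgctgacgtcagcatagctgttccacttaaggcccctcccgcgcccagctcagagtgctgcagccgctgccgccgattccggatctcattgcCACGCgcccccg

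Of the 4 regulators, 1 fell and 1 rose in siIGF2BP1 (PFKFB3 and PDK1), and 0 were called in siSRF, where 1 was lower at an unadjusted limma p below 0.05 and limma-voom called 1 lower and 0 higher. Beside these stand 3.57% lower and 3.55% higher of all genes in siIGF2BP1, and 5.34% and 6.85% in siSRF. Of the tested genes of at least 1 FPKM, the shares were 5.5% and 5.21% in siIGF2BP1, and 7.98% and 10.5% in siSRF. In siSRF 3492 of all 21857 genes were lower at that unadjusted p, and limma-voom called 10.7% lower and 12.7% higher. PFKFB3 makes fructose-2,6-bisphosphate, the main activator of phosphofructokinase. It was at 8.87, 8.91 and 7.53 FPKM in siC, 5.12, 4.80 and 5.19 in siIGF2BP1, and 8.16, 8 and 7.99 in siSRF. All siIGF2BP1 libraries lay below all others, and siC and siSRF overlapped. PFKFB3 fell by 0.73 in siIGF2BP1 (standard error 0.0899, limma adjusted p = 0.00386), and the direct difference was -0.67 (limma adjusted p = 4.2e-04). PDK1, a kinase that switches off pyruvate dehydrogenase and so holds pyruvate back from the mitochondria, was at 3.71, 3.50 and 4.07 FPKM in siC, 5.94, 6.24 and 6.21 in siIGF2BP1, and 3.60, 3.74 and 3.99 in siSRF. It rose by 0.69 in siIGF2BP1 (standard error 0.0858, limma adjusted p = 0.00391), where all libraries were above the rest, and the direct difference was 0.68 (limma adjusted p = 8.2e-04). Both calls against siC were kept only without siC 3 among the fits that left out a library (limma adjusted p 0.00611 to 0.0201 for PFKFB3 and 0.00863 to 0.0244 for PDK1), and the direct calls in all 6. PFKFB4, a sister of PFKFB3, was at 1.31 FPKM on average in siC, 1.34 in siIGF2BP1 and 0.790 in siSRF. Its log2 fold change of -0.67 in siSRF was not called (limma adjusted p = 0.097) and was called lower by limma-voom (adjusted p = 0.0081). PDK3, another pyruvate dehydrogenase kinase, was at 2.56, 2.22 and 2.20 FPKM with all groups overlapping.

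Of the 9 HIF target genes tested, 3 rose and 0 fell in siIGF2BP1, while in siSRF 3 rose and 1 fell. Of all genes tested, 3.55% were higher and 3.57% lower in siIGF2BP1, and 6.85% and 5.34% in siSRF. Among tested genes of at least 1 FPKM, where most of these targets lie, 5.21% were higher and 5.5% lower in siIGF2BP1. In siSRF those shares were 10.5% and 7.98%. At an unadjusted limma p below 0.05, 0 were lower and 4 higher in siIGF2BP1, and limma-voom called 0 lower and 3 higher. In siSRF 3 were lower and 4 higher at an unadjusted limma p below 0.05, and 3 and 4 by limma-voom. Over all genes, 3224 of 22292 were lower and 3287 higher at that p in siIGF2BP1, and 3492 and 4088 of 21857 in siSRF. The limma-voom shares were 8.48% and 8.59% in siIGF2BP1, and 10.7% and 12.7% in siSRF. The median log2 fold change of the HIF targets was 0.15 in siIGF2BP1 and 0.17 in siSRF, beside 0.02 and 0.01 over all genes tested. After removal of the trends with GC content and gene length the median of the HIF target genes in siSRF was 0.27. In the direct comparison 2 of the HIF target genes were lower and 2 higher in siIGF2BP1, and limma-voom called 2 lower and 3 higher. Beside these stand 11.2% and 8.82% of all genes tested, and 17.2% and 12.6% of those of at least 1 FPKM. By limma-voom the shares of all genes were 16.3% and 14.7%.

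P4HA1 encodes the catalytic chain of collagen prolyl 4-hydroxylase, which uses oxygen to stabilise collagen. It was at 30.3, 26.1 and 31.5 FPKM in siC, 58.7, 60.0 and 61.9 in siIGF2BP1, and 25.0, 23.7 and 23.5 in siSRF. The siIGF2BP1 libraries were far above the rest, and the siSRF libraries were the lowest, without overlap. P4HA1 rose by 1.04 in siIGF2BP1 (standard error 0.0766, limma adjusted p = 6.9e-04) and differed by 1.32 between the knockdowns (standard error 0.0409, limma adjusted p = 1.4e-05). In siSRF the log2 fold change was -0.28 (limma adjusted p = 0.0474), not called, though limma-voom (adjusted p = 0.0054), the fit without siC 2 (limma adjusted p = 0.0098) and the fit after removal of the trends with GC content and gene length (-0.49, limma adjusted p = 0.00233) called it. Its sister P4HA2 was at 3.83 FPKM on average in siC, 4.24 in siIGF2BP1 and 3.42 in siSRF and was not called. The P4HA1 window lies at chr10:73096817-73097116 on the minus strand and is shown because P4HA1 had the largest log2 fold change among the 5 members called higher in siIGF2BP1.
P4HA1: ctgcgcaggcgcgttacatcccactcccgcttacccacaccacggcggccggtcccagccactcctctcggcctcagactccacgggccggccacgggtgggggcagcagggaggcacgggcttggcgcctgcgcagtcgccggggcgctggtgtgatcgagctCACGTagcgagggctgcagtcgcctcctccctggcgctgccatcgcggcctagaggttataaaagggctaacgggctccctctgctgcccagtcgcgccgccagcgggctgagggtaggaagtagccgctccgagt

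BNIP3 and BNIP3L encode related proteins of the outer mitochondrial membrane that mark mitochondria for autophagy. BNIP3L was at 11.2, 10.5 and 10.8 FPKM in siC, 20.2, 21.3 and 21.0 in siIGF2BP1, and 18.5, 18.4 and 18.5 in siSRF. Both knockdowns lay above siC in all libraries, and siIGF2BP1 above siSRF. BNIP3L rose by 0.94 in siIGF2BP1 (standard error 0.0501, limma adjusted p = 2.5e-04) and by 0.77 in siSRF (standard error 0.0455, limma adjusted p = 3.5e-04), and the direct difference of 0.17 was not called (limma adjusted p = 0.0155), except after removal of the trends with GC content and gene length (0.26, limma adjusted p = 0.00229). The exons of BNIP3L overlap those of PNMA2 on the opposite strand over 330 bases, and PNMA2 had 35.1% as many reads. The strand setting of the counting is not given in the sources used here, so reads from the shared bases cannot be told apart. BNIP3 was at 20, 19.8 and 19.6 FPKM in siC, 23.3, 24.3 and 23.7 in siIGF2BP1, and 33.4, 30.7 and 31.0 in siSRF. The groups were ordered siC, siIGF2BP1, siSRF without overlap. BNIP3 rose by 0.26 in siIGF2BP1 (standard error 0.0408, limma adjusted p = 0.00883) and by 0.68 in siSRF (standard error 0.0467, limma adjusted p = 4.9e-04), with a direct difference of -0.42 (limma adjusted p = 9.3e-04). The smaller rise was lost without any of the 6 libraries (limma adjusted p 0.0277 to 0.0415) and after median-ratio rescaling. Entries named as BNIP3 pseudogenes, 39 in number, held 2.11% as many reads as BNIP3. The BNIP3 window lies at chr10:131981874-131982173 on the minus strand, and its 6 matches start between 143 and 104 bases before the RefSeq start of the gene, which differs from the GENCODE start given above.
BNIP3: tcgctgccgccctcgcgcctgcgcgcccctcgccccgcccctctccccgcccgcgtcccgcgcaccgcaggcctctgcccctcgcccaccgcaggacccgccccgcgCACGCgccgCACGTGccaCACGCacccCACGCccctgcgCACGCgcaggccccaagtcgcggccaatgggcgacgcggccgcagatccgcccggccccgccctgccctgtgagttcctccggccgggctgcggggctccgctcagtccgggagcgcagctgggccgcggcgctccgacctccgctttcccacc

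EGLN1 encodes the main HIF prolyl hydroxylase, which marks the alpha subunit for destruction and is itself a HIF target. It was at 12.8, 12.4 and 14.4 FPKM in siC, 13.3, 13.7 and 14.6 in siIGF2BP1, and 24.5, 22.3 and 22.6 in siSRF. The siSRF libraries lay above the rest, and siC and siIGF2BP1 overlapped. EGLN1 rose by 0.81 in siSRF (standard error 0.0716, limma adjusted p = 9.4e-04), and the direct difference was -0.73 (limma adjusted p = 2.6e-04). NDRG1, a gene that responds to hypoxia and to cell differentiation, went the other way in siSRF. It was at 6.11, 6.13 and 5.59 FPKM in siC, 6.33, 6.13 and 6.54 in siIGF2BP1, and 3.25, 3.65 and 3.45 in siSRF, and the siSRF libraries lay below all others. NDRG1 fell by 0.77 in siSRF (standard error 0.0848, limma adjusted p = 0.00183), a call lost only without siSRF 1 (limma adjusted p = 0.0101), and the direct difference was 0.86 (limma adjusted p = 4.0e-04).

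The remaining HIF targets were not called in any comparison. DDIT4, an inhibitor of mTORC1 signalling, was at 5.06 FPKM on average in siC, 4.98 in siIGF2BP1 and 3 in siSRF, with a log2 fold change of -0.73 in siSRF (limma adjusted p = 0.0277) that limma-voom called lower (adjusted p = 0.00279). KDM3A, a histone demethylase, was at 3.70, 4.57 and 5.00 FPKM, and its log2 fold change of 0.42 in siSRF (limma adjusted p = 0.0302) was called higher by limma-voom (adjusted p = 2.5e-04). ANKRD37 was at 0.711, 0.737 and 0.803 FPKM with all groups overlapping. Its exons overlap those of UFSP2 on the opposite strand over 909 bases, and UFSP2 had 1109% as many reads, so the ANKRD37 values are uncertain.

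HIF1A, the oxygen-labile alpha subunit, was at 39.8, 37.1 and 37.7 FPKM in siC, 56.7, 56.1 and 56.4 in siIGF2BP1, and 63.7, 60.7 and 58.8 in siSRF. Every library of both knockdowns lay above every siC library. HIF1A mRNA rose by 0.56 in siIGF2BP1 (standard error 0.0416, limma adjusted p = 7.1e-04) and by 0.67 in siSRF (standard error 0.0478, limma adjusted p = 5.1e-04), and both calls held in all 6 fits that left out a library. The direct difference of -0.11 was not called (limma adjusted p = 0.0702) and was 0.01 after removal of the trends with GC content and gene length. HIF-1alpha is controlled mainly through the stability of the protein, which was not measured here. EPAS1, which encodes HIF-2alpha, was far lower at 0.692 FPKM on average in siC, 1.08 in siIGF2BP1 and 0.524 in siSRF. Its log2 fold changes to siC were 0.56 (limma adjusted p = 0.154) and -0.34 (limma adjusted p = 0.376), and neither was called. ARNT, the stable partner, was at 3.50 FPKM in siC, 4.72 in siIGF2BP1 and 3.30 in siSRF and was not called, with 0.42 in siIGF2BP1 (limma adjusted p = 0.0973), where limma-voom called it higher (adjusted p = 0.00686). Of the 3 subunits limma called 0 lower and 1 higher in siIGF2BP1 and in siSRF, and 0 in the direct comparison. The shares of all genes called higher were 3.55%, 6.85% and 8.82% in the same order, and those called lower 3.57%, 5.34% and 11.2%. Among tested genes of at least 1 FPKM, 5.21%, 10.5% and 12.6% were higher and 5.5%, 7.98% and 17.2% lower. At an unadjusted limma p below 0.05, 0 were lower and 3 higher in siIGF2BP1, 0 and 1 in siSRF, and 1 and 2 in the direct comparison. Limma-voom called 0 lower in each, and 2, 1 and 2 higher, with EPAS1 and ARNT the 2 of the direct comparison. Over all genes, 3224 of 22292 were lower and 3287 higher at that unadjusted p in siIGF2BP1. The counts were 3492 and 4088 of 21857 in siSRF, and 4747 and 4428 of 22311 in the direct comparison. By limma-voom 8.59%, 12.7% and 14.7% of all genes were higher in the same order. Without siIGF2BP1 1 limma called 1 subunit higher in the direct comparison.

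**Figure D4:**
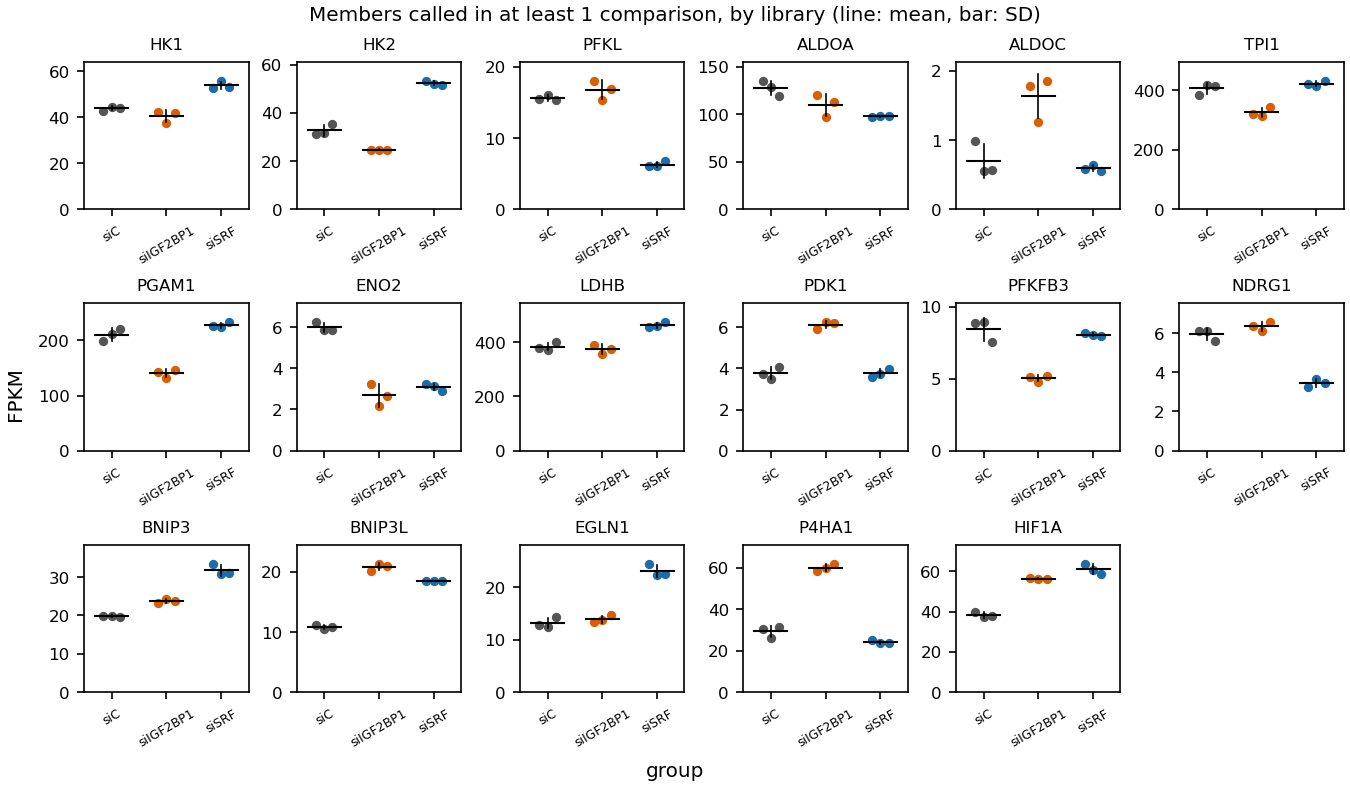
FPKM of the 17 members called in at least 1 of the 3 comparisons, in each library, with the mean as a line and the SD as a bar (n = 3 per group). HK2 parts all 3 groups, P4HA1 stands out in siIGF2BP1 (60.2 FPKM on average against 29.3 in siC) and PFKL in siSRF (6.27 against 15.6).

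Set side by side, 15 members were called in at least 1 knockdown and 5 in both. The 5 were HK2, ENO2, BNIP3, BNIP3L and HIF1A. Such counts were made for the members only, so whether they differ from those over all genes was not tested. The knockdown comparisons share the siC libraries, so the direct comparison was used to say where the knockdowns differed. It separated the knockdowns for HK2, BNIP3, P4HA1, PDK1, PFKFB3, PGAM1, EGLN1, HK1, LDHB, NDRG1 and PFKL among the members called against siC, and did not for ENO2, ALDOA, BNIP3L and HIF1A. ALDOC and TPI1 were called in the direct comparison alone.

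The promoter windows of 34 members were found in the RefSeq table. ACGTG was present on either strand in 15 of the 34 (44.1%), in 8 of 17 enzymes (47.1%) and in 6 of 10 HIF targets (60.0%). Over all 35116 windows of the table the share was 21.4%, and over 8209 windows of protein-coding genes of at least 1 FPKM it was 28.1%. With GCGTG included, 25 of the 34 (73.5%) held a match, beside 48.4% and 65.3%. None of the 34 windows held a CArG box, the motif bound by SRF (CC, then 6 letters of A or T, then GG), which 1.29% of all windows and 0.962% of the windows of expressed genes held. The members lie on many chromosomes, with 7 on chromosome 10 and 5 on chromosome 12, and apart from GAPDH, TPI1 and ENO2 no neighbours lie closer than 731180 bases (DDIT4 and P4HA1).

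Other genes of the same pathways were read from lists by function. Of 10 genes of glucose and lactate transport tested in siSRF, 4 were called lower and 0 higher, beside 5.34% and 6.85% of all genes tested, and 7 of the 10 log2 fold changes were negative, with a median of -0.47. There were 5 lower and 1 higher at an unadjusted limma p below 0.05 and 5 lower and 0 higher by limma-voom. At that p 3492 of all 21857 genes were lower and 4088 higher, and limma-voom called 10.7% and 12.7%. SLC16A1, a lactate carrier, was at 32.0, 31.1 and 36.1 FPKM in siC, 29.5, 29.3 and 31.8 in siIGF2BP1, and 18.2, 17.2 and 17.8 in siSRF. The siSRF libraries lay below all others (log2 fold change -0.89, limma adjusted p = 5.5e-04). SLC2A1, the common glucose carrier GLUT1 and a HIF target, was at 26.4, 26.6 and 26.2 FPKM in siC, 28.0, 26.3 and 27.2 in siIGF2BP1, and 18, 19.8 and 19.1 in siSRF, and fell by 0.48 in siSRF (limma adjusted p = 0.00137). BSG, the chaperone of the lactate carriers, fell by 0.46 in siSRF (limma adjusted p = 0.00141), a call lost after removal of the trends with GC content and gene length (-0.22, limma adjusted p = 0.0183) and without siSRF 2 (limma adjusted p = 0.0103). SLC2A8, chosen after its values were seen, fell by 1.33. Without siSRF 2 the count lower was 2. In siIGF2BP1, 2 of 9 rose and 0 fell, beside 3.55% and 3.57% of all genes tested, with 3 and 1 at an unadjusted limma p below 0.05 and 3 and 1 by limma-voom. There 3287 of all 22292 genes were higher and 3224 lower at that p, and limma-voom called 8.59% and 8.48%. SLC2A3, the high-affinity glucose carrier, was at 4.89, 5.21 and 4.74 FPKM in siC and 8.39, 9.73 and 9.33 in siIGF2BP1 and rose by 0.87 (limma adjusted p = 0.00158, and 0.0129 without siIGF2BP1 3). The hypoxia-inducible lactate carrier SLC16A3 rose by 1.57 from 0.578 FPKM (limma adjusted p = 0.00742), a call lost without any of the 6 libraries (limma adjusted p 0.0141 to 0.0387). In the direct comparison 7 of 10 transport genes were higher and 0 lower in siIGF2BP1, beside 8.82% and 11.2% of all genes tested, with 7 and 1 at an unadjusted limma p below 0.05 and 7 and 1 by limma-voom. Of all 22311 genes, 4428 were higher and 4747 lower at that p, and limma-voom called 14.7% and 16.3%.

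The pentose phosphate pathway, which takes glucose-6-phosphate away from glycolysis to make NADPH and ribose, had 7 genes tested. In siSRF 5 were lower (among them TALDO1, TKT, PGD and PGLS) and 1 higher (RPE), beside 5.34% and 6.85% of all genes tested, with a median log2 fold change of -0.59 beside 0.01 over all genes. TALDO1, transaldolase, was at 62.5, 71.9 and 61.2 FPKM in siC, 56.6, 45.4 and 47.3 in siIGF2BP1, and 30.5, 32.0 and 29.2 in siSRF. The siSRF libraries of TALDO1 lay below all others, with a log2 fold change of -1.09 (limma adjusted p = 4.6e-04). TKT, transketolase, fell by 0.59 (limma adjusted p = 9.2e-04), which was lost after removal of the trends with GC content and gene length (-0.36, limma adjusted p = 0.0107). PGD fell by 0.52, PGLS by 1.05, and RPE, chosen after its values were seen, rose by 0.35. The count higher was 0 without any library but siC 3, where it was 1. In siIGF2BP1, 0 of the 7 were called lower and 0 higher, with 1 and 3 at an unadjusted limma p below 0.05 and 1 and 2 by limma-voom. There 3224 of all 22292 genes were lower and 3287 higher at that p, and limma-voom called 8.48% and 8.59%. After removal of the trends with GC content and gene length TKT (0.33) was among those of the 7 called higher. Against siSRF 5 of the 7 were higher and 0 lower, beside 8.82% and 11.2% of all genes tested, with 5 and 2 unadjusted and 5 and 1 by limma-voom. Of all 22311 genes, 4428 were higher and 4747 lower unadjusted, and limma-voom called 14.7% and 16.3%.

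**Figure D5:**
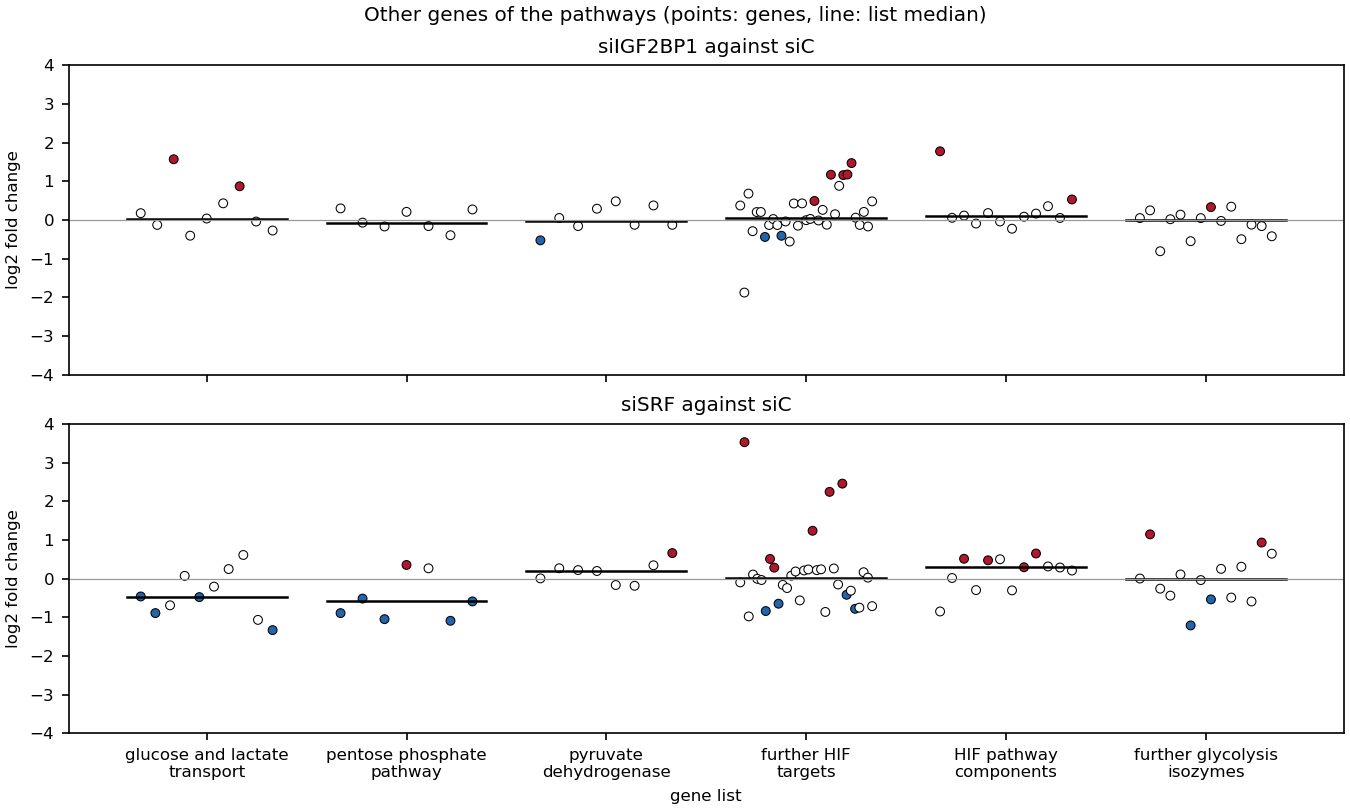
Log2 fold change of each tested gene of the 6 further lists, for siIGF2BP1 against siC and siSRF against siC, with the median of each list as a line. In siSRF the medians of the transport and pentose phosphate lists lie at -0.47 and -0.59, and in siIGF2BP1 at 0.04 (0.14 for transport after removal of the trends with GC content and gene length) and -0.07.

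Of 14 further isozymes and regulators tested, PDP1, the phosphatase that reverses the PDK kinases, rose by 0.33 in siIGF2BP1 and fell by 0.54 in siSRF, from 63.7 FPKM on average in siC to 80.3 and 43.9, with a direct difference of 0.87 (limma adjusted p = 3.2e-05). It was the single gene of the list called in siIGF2BP1, a call lost without any of the 6 libraries (limma adjusted p 0.0161 to 0.0369), and 0 were lower, with 4 at an unadjusted limma p below 0.05 and 2 by limma-voom. In siSRF PDK2, chosen after its values were seen, also fell (by 1.21), and PGM2 (0.93) and BPGM (1.145) rose, a phosphopentomutase and the bisphosphoglycerate mutase. BPGM was not called without siSRF 2 or siC 1 (limma adjusted p up to 0.0127). TIGAR, which breaks down the phosphofructokinase activator, differed between the knockdowns by -1.06 (limma adjusted p = 7.3e-04). Of this list 3 genes were lower and 2 higher in siIGF2BP1 against siSRF, beside 11.2% and 8.82% of all genes tested, and the count higher was 1 without any of the 6 libraries. In siSRF against siC the count lower was 1 without any library but siSRF 2. Limma-voom called 4 lower and 3 higher of this list in siSRF, and 5 and 4 in the direct comparison. The shares of all genes called lower and higher were 3.57% and 3.55% in siIGF2BP1 and 5.34% and 6.85% in siSRF. By limma-voom they were 8.48% and 8.59% in siIGF2BP1, 10.7% and 12.7% in siSRF, and 16.3% and 14.7% in the direct comparison. Unadjusted, 3224 of 22292 genes were lower and 3287 higher in siIGF2BP1, and 3492 and 4088 of 21857 in siSRF. Of 8 genes of pyruvate dehydrogenase and pyruvate entry, DLAT fell by 0.52 in siIGF2BP1 and PDHX rose by 0.66 in siSRF, with 1 called in each. The count higher in siSRF was 5 at an unadjusted limma p below 0.05 and 3 by limma-voom. The count higher in siIGF2BP1 and the count lower in siSRF were 0 by limma, with 3 and 0 at an unadjusted p below 0.05 and 2 and 0 by limma-voom. The DLAT call was kept only without siC 2 (limma adjusted p 0.00928 to 0.0217). In the direct comparison, where 11.2% of all genes were lower and 8.82% higher, 3 were lower (among them PDHX and DLAT) and 1 (PC) higher, which was lost without siIGF2BP1 3 (limma adjusted p = 0.0103), and limma-voom called 4 lower and 1 higher.

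Of the further HIF targets, 2 of 33 fell and 5 rose in siIGF2BP1, and 4 of 32 fell and 6 rose in siSRF, with medians of 0.06 and 0.01. Of all genes tested, 3.57% were lower and 3.55% higher in siIGF2BP1, and 5.34% and 6.85% in siSRF. At an unadjusted limma p below 0.05, 3 of the list were lower and 13 higher in siIGF2BP1, and 9 and 7 in siSRF. Over all genes at that p, 3224 of 22292 were lower and 3287 higher in siIGF2BP1, and 3492 and 4088 of 21857 in siSRF. Limma-voom called 3 of the list lower and 10 higher in siIGF2BP1, beside 8.48% and 8.59% of all genes. In siSRF it called 9 and 7, beside 10.7% and 12.7%. By limma-trend in siIGF2BP1 the count lower was 0 without any of the 6 libraries, and the count higher was 3 without siIGF2BP1 2, siIGF2BP1 3 or siC 1. In siSRF the count lower was 2 without siSRF 2. The medians of the further HIF target genes were 0.18 in siIGF2BP1 and -0.06 in siSRF after removal of the trends with GC content and gene length, and -0.01 in siSRF after median-ratio rescaling. PLOD2, a collagen lysyl hydroxylase, was at 16.8, 15.4 and 18 FPKM in siC, 37.7, 38.6 and 36.8 in siIGF2BP1, and 79.3, 78.4 and 80.4 in siSRF. The groups were ordered siC, siIGF2BP1, siSRF without overlap. PLOD2 rose by 1.17 in siIGF2BP1 and 2.24 in siSRF (limma adjusted p = 3.1e-04 and 4.4e-05). LOX, lysyl oxidase, rose by 0.49 and 1.24, the former not called without siIGF2BP1 2, siIGF2BP1 3 or siC 1 (limma adjusted p up to 0.0154). STC2, a secreted glycoprotein, rose by 1.18 in siIGF2BP1 and fell by 0.42 in siSRF, with a direct difference of 1.59 (limma adjusted p = 1.8e-05). Its siSRF call was kept only without siC 1 (limma adjusted p 0.00652 to 0.0231). In the direct comparison 7 of 33 were lower and 9 higher in siIGF2BP1, beside 11.2% and 8.82% of all genes tested, and without siIGF2BP1 3 the count higher was 5. Limma-voom called 8 lower and 13 higher there, beside 16.3% and 14.7% of all genes. The lower genes in siIGF2BP1 were ERO1A (-0.44) and GYS1 (-0.41), and another higher gene was TMEM45A (1.47), all 3 chosen after their values were seen. In siSRF the lower genes were STC2 and, chosen after their values were seen, VEGFA (-0.78), FAM162A (-0.84) and GYS1 (-0.65).

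Of 12 HIF pathway components tested, 2 rose and 0 fell in siIGF2BP1, with 3 and 0 at an unadjusted limma p below 0.05 and 2 and 0 by limma-voom, beside 3.55% and 3.57% of all genes called. Unadjusted, 3287 of all 22292 genes were higher and 3224 lower, and limma-voom called 8.59% and 8.48%. For siSRF these values were 4088 and 3492 of 21857, and 12.7% and 10.7%. For the direct comparison they were 4428 and 4747 of 22311, and 14.7% and 16.3%. ARNT2, a relative of ARNT, was at 1.74, 1.71 and 1.66 FPKM in siC, 6.40, 5.30 and 6.63 in siIGF2BP1, and 0.941, 0.907 and 0.859 in siSRF. The groups did not overlap, and ARNT2 rose by 1.78 in siIGF2BP1 (limma adjusted p = 5.2e-04) with a direct difference of 2.63 (limma adjusted p = 4.9e-05). VHL, the substrate receptor that recognises the hydroxylated alpha subunit, rose by 0.53 in siIGF2BP1 (limma adjusted p = 0.00358), a call lost without any of the 6 libraries (limma adjusted p 0.0104 to 0.0206). In siSRF 4 rose and 0 fell, beside 6.85% and 5.34% of all genes called, with 8 and 1 at an unadjusted limma p below 0.05 and 5 and 1 by limma-voom. The 4 were CUL2 (0.51), RBX1 (0.65) and ELOB (0.47), partners of VHL in its ubiquitin ligase, and HIF1AN (0.29), the asparagine hydroxylase of HIF, chosen after its values were seen. Among the fits that left out a library, the RBX1 call was kept only without siC 3 (limma adjusted p 0.0045 to 0.0132). The ELOB call was kept only without siC 1 or siC 3 (limma adjusted p 0.00679 to 0.0252). In the direct comparison 2 were lower and 2 higher, beside 11.2% and 8.82% of all genes, with 5 and 2 at an unadjusted limma p below 0.05 and 5 and 2 by limma-voom. There was 1 lower without any library but siIGF2BP1 3 and 1 higher without any library but siIGF2BP1 2.

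The members called against siC in siIGF2BP1 at the smallest fold changes, HK2 and BNIP3, were called in none of the fits that left out a library. The deposited lengths are union lengths of all exons, 1.06 to 3.75 times the canonical transcript among the members, so levels of different genes are comparable only to that degree.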

How the data were processed

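The authors clipped reads with cutadapt 1.14, aligned them with HISAT2 2.1.0 to hg38, counted them per gene with featureCounts 1.5.3 and deposited FPKM scaled by edgeR 3.18.1 (TMM). The strand setting of the counting is not given in the sources used here. The deposited gene length, in bases, was used to recover whole reads from the FPKM (tolerance 0.001). The log2 fold changes, p-values and FDR that the authors deposited for their own comparisons were not used.

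Genes that averaged 0.1 FPKM or more in the 6 libraries of a comparison were tested with limma 3.58.1 in R 4.3.3 (limma-trend on log2(FPKM + 0.1), two-sided, Benjamini-Hochberg over all genes tested, called at an adjusted p of at most 0.01). The procedure was tested on simulated data, where limma-trend recovered a smaller share of what had been changed than limma-voom, so a gene that was not called may still differ. Tables were made with Python 3.11.15, pandas 2.3.3 and numpy 2.4.6. Alternatives were pseudocounts of 1 and 0.01, a minimum mean of 1 FPKM or none, median-ratio rescaling, a replicate block, all 9 libraries in 1 fit, removal of trends with GC content and gene length, an adjusted p of at most 0.05, each library left out and limma-voom on the recovered reads.

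Named genes were all 36 members, IGF2BP1, SRF, the cell type markers and, for each further list and comparison, the 3 called genes with the smallest limma p among those of at least 1 FPKM on average whose libraries do not overlap. The members and lists were chosen with earlier results of these data known.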

Additional observations from a re-analysis of the deposited data

How the results depend on the processing

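Counts of members called lower or higher and their log2 fold changes were recomputed under each alternative. No called member changed sign. Some values that were not called did so after removal of the trends with GC content and gene length, among them PKM (-0.11 to 0.06) and PFKP (-0.09 to 0.09) in siSRF and HIF1A (-0.11 to 0.01) in siIGF2BP1 against siSRF, as did the siSRF medians of the glycolytic enzymes and of the further HIF targets. With a replicate block, which pairs libraries by their number, siIGF2BP1 against siC had 0 members lower and 0 higher by limma, with 7 and 7 of 33 at an unadjusted p below 0.05. Over all 22292 genes tested the block left 31 lower and 60 higher, where the main fit had 796 and 792. Limma-voom was run without a block only, and called 7 and 7 members. In siSRF against siC the block left 1 member lower and 3 higher, beside 244 and 257 of all 21857 genes (1167 and 1498 in the main fit). In siIGF2BP1 against siSRF it left 4 members lower and 4 higher, beside 1203 and 872 of all 22311 genes (2492 and 1968 in the main fit). The labels do not pair the libraries. For genes of at least 1 FPKM, the deviations of each library from its group mean were correlated between groups. Same-numbered libraries gave -0.0438 to 0.0186 over 9 pairs, and differently numbered libraries -0.0534 to 0.0443. By limma-voom, chosen after seeing the data, 7 members were lower in siIGF2BP1 against siC, 9 lower in siSRF against siC and 11 higher in siIGF2BP1 against siSRF. With the adjusted p threshold at 0.05, 7 were lower in siSRF against siC and 10 higher in siIGF2BP1 against siSRF. The cause was not tested.

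Leaving out each library in turn gave 0 to 1 members lower and 3 to 4 higher in siIGF2BP1 against siC, 2 to 4 lower and 5 to 6 higher in siSRF against siC, and 6 to 8 lower and 4 to 5 higher in siIGF2BP1 against siSRF. These fits have fewer samples, and their calls over all genes fell as well. In siIGF2BP1 against siC they called 224 to 329 genes lower and 212 to 420 higher, where the full fit called 796 and 792. In siSRF against siC they called 482 to 673 and 464 to 1123, where the full fit called 1167 and 1498. In siIGF2BP1 against siSRF they called 1577 to 1951 and 1214 to 1455, where the full fit called 2492 and 1968. The planned edgeR alternative was not run. The deposited values are FPKM, and limma-voom on the recovered reads was run in its place. Isozyme shares by canonical transcript length were also chosen after seeing the data. Depth limits CA9, ADM and EGLN3, which were covered by 3, 7 and 3 reads over the 9 libraries.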

Other observations

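Some further HIF targets, chosen after their values were seen, varied widely between the groups. ANGPTL4, a secreted inhibitor of lipoprotein lipase, was at 0.488, 0.593 and 0.390 FPKM in siC, 0.0525, 0.166 and 0 in siIGF2BP1, and 5.99, 6.23 and 7.81 in siSRF. All siSRF libraries lay above the others, with a log2 fold change of 3.53 to siC (limma adjusted p = 2.9e-04), and the value in siIGF2BP1 was not called (-1.87, limma adjusted p = 0.0506). VEGFA, the angiogenic growth factor, was at 6.15, 6.12 and 6.25 FPKM in siC, 6.56, 6.38 and 6.39 in siIGF2BP1, and 3.30, 3.79 and 3.58 in siSRF. The siSRF libraries lay below the others. GYS1, the muscle glycogen synthase, was at 19.5, 19.5 and 19.4 FPKM in siC, 15.1, 14.7 and 14.3 in siIGF2BP1, and 12.6, 12.1 and 12.5 in siSRF, and the groups did not overlap.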
